A study of Mus musculus with 22 samples.

Results

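The sites described here are 4596 places on the mouse genome where the myeloid factor PU.1 was bound in all 3 versions of the BV2 microglial line and where C/EBPβ was bound beside it in all 3. They were selected on peak overlap alone: a PU.1 peak of the empty-vector cells was kept if it shared at least 1 bp with a PU.1 peak in the wild-type-fragment cells and in the mutant-fragment cells, and with a C/EBPβ peak in each of the 3 lines. They are 6.40% of the 71846 PU.1 peaks of the empty-vector cells and 12.0% of the 38336 PU.1 peaks that were found in all 3 lines (constant PU.1 sites). The other 33740 constant PU.1 sites serve as the main comparison. Of these, 27255 had no C/EBPβ peak in any line, 3771 had it in 1 line and 2714 in 2 lines. Below, the 4596 are called the shared sites, and the plots label them members. Because PU.1 and C/EBPβ chose them, the values of these factors at the sites are given only as a description.

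The series asks how mutant huntingtin, the protein with an expanded glutamine tract in Huntington's disease, acts on microglia. BV2 is an immortalised mouse microglial line. Its cells carried a lentiviral pCDH vector with a CMV promoter and a puromycin resistance gene, which was empty (pCDH), or carried the N-terminal part of human huntingtin, with 15 glutamines (Nwt, the wild-type fragment) or 128 (Nmu, the mutant fragment). The controls therefore carry the vector too, and the fragments were overexpressed beside the cells' own mouse huntingtin. ChIP-seq in untreated cells, with 1 library per line and antibody and a label of 24 h, mapped PU.1, both C/EBP factors and H3K4me2 (dimethylation of lysine 4 of histone H3, a mark of promoters and enhancers). Poly(A) RNA was sequenced in 2 libraries per line: 1 at 24 h, and 1 whose time is 6 h in the header of the table and 48 h in the labels, called the second time with no order assumed. Adult brain microglia, sorted as CD11b-positive and CD45-low cells, and bone marrow derived macrophages of mice with 7 or 175 glutamines in both huntingtin alleles gave 1 RNA library each. The labels leave unsaid whether any libraries stem from separate transductions or cultures, so p-values below describe the spread of these samples alone, and that spread may be technical.

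PU.1, encoded by Spi1, is the ETS-family factor that macrophages, microglia and B cells depend on, and it binds purine-rich DNA around the letters GGAA. C/EBPα and C/EBPβ are basic leucine zipper factors that bind as dimers to sites of the form TTGCNNAA, of which TTGCGCAA is the palindrome. Both can recognise the same sites. In macrophages PU.1 and C/EBP factors are known to bind close together at enhancers, where they open chromatin and help to place H3K4 methylation, and other factors that respond to signals then use these sites.

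Most shared sites lie far from genes' starts, and no genome of the files' build (mm9) was used here, so their own sequence is not shown. The promoter sequences below are shown because a shared site falls on them: they belong to genes with roles in phagocytes whose start has the centre of a shared site within the window from 250 bp before to 50 bp after it. In all, 146 shared sites, beside 146 genes, lay in such a window. RefSeq promoters (GRCm38.p6, 250 bases before to 50 after each start) were found by symbol for 105 of these genes, with 134 entries. From the gene lists used below, 17 genes had such a site. The 6 most abundant in BV2 RNA among the 11 with a single RefSeq promoter are printed, each as the 250 bases before the start, 5′ to 3′ on the gene's strand. Capitals mark every match, on either strand, to GGAA (the ETS core, TTCC on the other strand), TTGCNNAA (C/EBP) or TGANTCA (AP-1). Where a GGAA match lies inside or beside another match the capitals run together. The distance of a site's centre from the start was measured on mm9, and that the RefSeq start is the same base in both builds was not checked.
Ctsk: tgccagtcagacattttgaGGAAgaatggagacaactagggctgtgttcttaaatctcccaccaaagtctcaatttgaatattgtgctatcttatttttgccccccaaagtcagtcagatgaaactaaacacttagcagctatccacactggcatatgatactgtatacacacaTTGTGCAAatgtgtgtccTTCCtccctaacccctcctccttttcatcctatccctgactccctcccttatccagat
Cd68: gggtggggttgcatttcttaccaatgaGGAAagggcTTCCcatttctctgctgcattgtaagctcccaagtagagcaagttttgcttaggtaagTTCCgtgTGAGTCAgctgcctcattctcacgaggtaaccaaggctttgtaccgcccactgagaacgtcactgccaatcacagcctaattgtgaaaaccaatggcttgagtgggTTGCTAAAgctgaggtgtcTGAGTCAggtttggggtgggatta
Fcgr1: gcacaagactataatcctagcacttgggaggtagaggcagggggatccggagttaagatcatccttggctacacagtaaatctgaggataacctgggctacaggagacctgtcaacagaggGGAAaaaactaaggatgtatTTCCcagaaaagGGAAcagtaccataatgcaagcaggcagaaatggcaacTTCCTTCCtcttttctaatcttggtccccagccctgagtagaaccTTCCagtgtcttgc
Clec4a1: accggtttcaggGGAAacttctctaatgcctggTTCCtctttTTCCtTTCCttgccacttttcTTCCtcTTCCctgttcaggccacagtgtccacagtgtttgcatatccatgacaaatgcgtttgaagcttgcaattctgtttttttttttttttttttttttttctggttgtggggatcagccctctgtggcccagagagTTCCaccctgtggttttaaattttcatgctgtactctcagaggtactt
Il1b: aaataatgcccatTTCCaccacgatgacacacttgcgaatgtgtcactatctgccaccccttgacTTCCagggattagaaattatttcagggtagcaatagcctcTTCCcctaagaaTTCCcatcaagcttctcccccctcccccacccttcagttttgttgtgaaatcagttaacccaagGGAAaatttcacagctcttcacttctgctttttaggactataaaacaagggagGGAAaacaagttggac
S100a8: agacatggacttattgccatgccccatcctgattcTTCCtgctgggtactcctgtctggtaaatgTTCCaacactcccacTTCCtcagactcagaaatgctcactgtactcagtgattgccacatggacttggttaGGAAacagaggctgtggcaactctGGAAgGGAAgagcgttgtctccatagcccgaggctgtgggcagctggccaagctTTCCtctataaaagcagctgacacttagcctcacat
Ctsk, cathepsin K, is a lysosomal protease. Its site (mm9, chr3:95303080-95303226) is centred 21 bp after the start, and the C/EBP letters begin 76 bases before the start and again, outside the printed run, 24 bases after it. Cd68, a lysosomal membrane protein of macrophages, has its site (chr11:69479571-69479717) centred 80 bp before the start, between AP-1 letters that begin 149 and 24 bases before it, with C/EBP letters beginning 43 bases before it. Fcgr1, the high-affinity IgG receptor, has its site (chr3:96097879-96098025) centred 60 bp before the start, where GGAA letters begin 59 and 55 bases before it. Clec4a1, a C-type lectin receptor, has its site (chr6:122871576-122871722) centred 217 bp before the start, in a stretch with 6 GGAA matches and no match to the C/EBP letters. Il1b, interleukin-1 beta, has its site (chr2:129196852-129196998) centred 69 bp before the start, and a GGAA match begins 69 bases before it. S100a8, a calcium-binding protein of neutrophils and inflamed macrophages, has its site (chr3:90472744-90472890) centred 176 bp before the start, and the longer ETS letters AGGAAGTG begin 173 bases before it.

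Over the 134 promoter entries of the 105 genes with a shared site in the window, 26 (19.4%) held TTGCNNAA on either strand. The share was 10.8% of all 32851 promoters in the table and 10.2% of the 1758 entries of genes with any empty-vector PU.1 peak in the same window. Both of these larger groups include the 134 entries. The longer ETS letters GAGGAAGT were in 15.7% of the 134 entries, 14.5% of the entries of genes with any PU.1 peak and 3.20% of all promoters. AGGAAGTG gave 15.7%, 17.2% and 4.07%. TGANTCA was in 11.2%, 6.60% and 7.81%. The short core GGAA was in 98.5%, 99.1% and 96.0%, so it does not tell the groups apart. The exact C/EBP letters TTGCGCAA were in 1.49%, 0.512% and 0.183%, and TTGCACAA in 3.73%, 0.796% and 1.01%, which is 2 and 5 of the 134 entries. These matches describe letters in a window and are not mapped binding positions. As 1 gene can have several entries, a shared site need not lie on each of the 134.

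Total tags were 5.36 to 7.30 M for the PU.1 libraries, 5.26 to 5.39 M for H3K4me2, 13.6 to 17.7 M for C/EBPβ and, for C/EBPα, 14.7 to 24.1 M (M, mega). The libraries differed in how many peaks were called. In the order empty vector, wild-type fragment, mutant fragment, kept below, C/EBPβ had 35964, 69522 and 47893 peaks, with 8.09%, 23.0% and 24.3% of tags in peaks. C/EBPα peaks numbered 11645, 19732 and 9117. The macrophage genes Csf1r, Itgam, Cd68, Ptprc, Spi1, Fcer1g and Tyrobp had at least 7.98 RPKM (reads per kilobase of transcript and per M reads) in every BV2 library, and Aif1 had 0.878 to 7.20 RPKM. Of 46 genes that mark neurons, glia, endothelium, fibroblasts or lymphocytes, 2 reached 1 RPKM in any BV2 library. One of them is Flt1, which is nearest to 2 shared sites. Spi1, Cebpa and Cebpb are not the nearest gene to any shared site, although 2, 4 and 2 constant PU.1 sites without C/EBPβ were nearest to them.

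The smallest of the 3 C/EBPβ overlaps had a median of 89 bp and ranged from 1 to 141 bp, and in 142 sites (3.09%) it was 10 bp or less. Shared sites with 1 bp of overlap include ones nearest to Plxnc1 (chr10:94537942-94538088), Tet2 (chr3:133286116-133286262) and Ddit4 (chr10:59430141-59430287). Just outside, 99 of the 2714 constant PU.1 sites with C/EBPβ in 2 lines had a C/EBPβ peak no more than 10 bp away in the remaining line. The line in which it was missing was the empty-vector line at 2137 of the 2714, the mutant-fragment line at 421 and the wild-type-fragment line at 156. The smaller of the 2 PU.1 overlaps was 10 bp or less at only 8 shared sites. Read from the C/EBPβ side, 27374 empty-vector C/EBPβ peaks recurred in both other lines, and 4566 of them (16.7%) lay at a shared site.

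C/EBPα, which the rule did not use, was at a large part of the shared sites and at few other PU.1 sites. A C/EBPα peak overlapped 2165 of the 4596 shared sites in empty-vector cells (47.1%, 95% interval 45.7 to 48.6, exact binomial, counting error only), 3099 in wild-type-fragment cells (67.4%, 66.1 to 68.8) and 1876 in mutant-fragment cells (40.8%, 39.4 to 42.3). Over all PU.1 peaks of the empty-vector file the shares were 4.71%, 7.70% and 4.16%. At the other constant sites they were 0.747%, 2.46% and 0.877%. The difference averaged 50.4 percentage points (SD 13, n = 3 lines), with the shared sites higher in 3 of 3 lines, and an exact paired permutation test over the lines (two-sided) gave p = 0.25, the smallest it can give. The share was lower with fewer C/EBPβ files: in empty-vector cells it was 5.82% at constant sites with C/EBPβ in 2 lines, 1.38% at those with it in 1 and 0.154% at those with none. With 1 library per line, differences between lines have no test. The line with the highest share, the wild-type-fragment line, is also the one with the most tags (24.1 M against 16.3 and 14.7 M) and the most C/EBPα peaks, and the part of depth in the order of the lines was not tested.

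Site by site, 1364 shared sites (29.7%) had a C/EBPα peak in all 3 lines and 1165 (25.3%) in none. Another 822 (17.9%) had it only in the wild-type-fragment line, against 152 only in the empty-vector line and 112 only in the mutant-fragment line. The sites that lacked it in a single line were 581 for the mutant-fragment line, 332 for the empty-vector line and 68 for the wild-type-fragment line. The wild-type-fragment line also had the most C/EBPα peaks (19732, against 11645 with the empty vector and 9117 with the mutant fragment). These patterns are given for shared sites only, without the same counts over all PU.1 peaks. From the other direction, shared sites held 18.6%, 15.7% and 20.6% of all C/EBPα peaks in the 3 lines. C/EBPα was also common at constant C/EBPβ sites away from PU.1. Of 19086 constant C/EBPβ sites with no PU.1 peak in any line, 35.1%, 51.8% and 25.5% had a C/EBPα peak, against 48.3%, 68.9% and 41.8% of the constant C/EBPβ sites at a shared site. The difference averaged 15.5 points (SD 2.12, n = 3 lines, higher in 3 of 3, exact paired permutation p = 0.25, the smallest it can give). The C/EBPβ sites at a shared site also stood higher in the empty-vector C/EBPβ file (median place 32.7% of the way down, against 41.1% without PU.1). Fewer of them lay within 1 kb of a start (7.36% against 11.4%). The part of either in the difference was not tested.

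**Figure D1:**
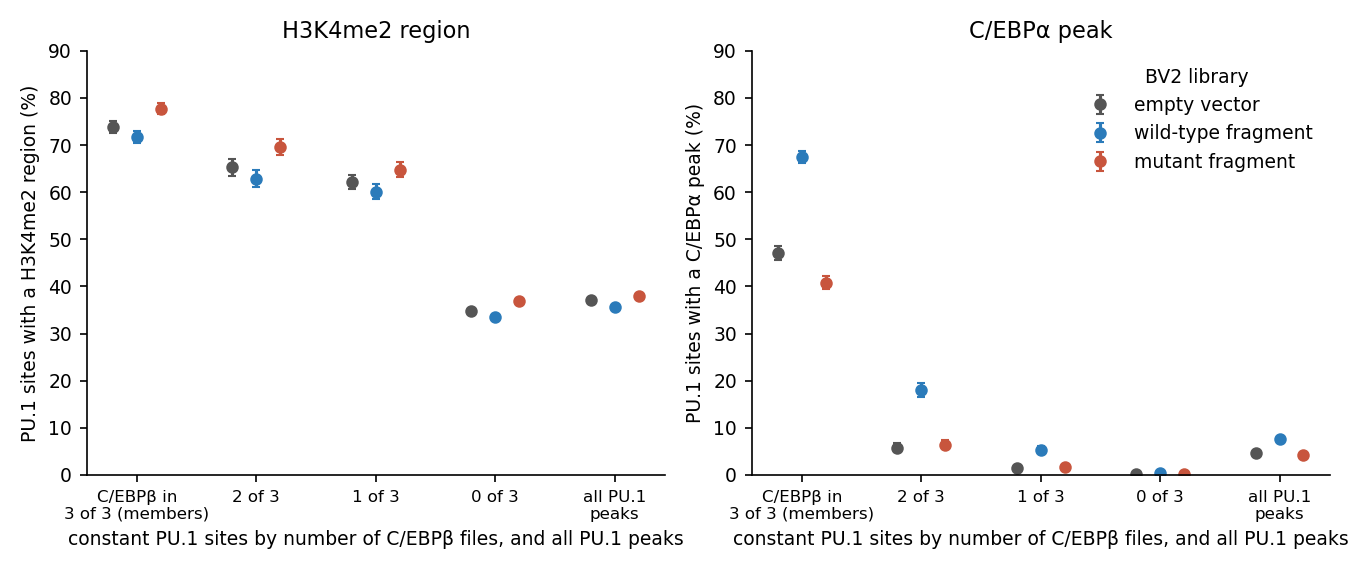
Share of PU.1 sites (%, vertical axis) that overlap an H3K4me2 region (left) or a C/EBPα peak (right), for constant PU.1 sites grouped by the number of C/EBPβ files that hold them and for all PU.1 peaks; points are single libraries and bars are exact 95% binomial intervals. The shared sites (leftmost) are at 71.7 to 77.7% for H3K4me2 and 40.8 to 67.4% for C/EBPα, while sites without C/EBPβ are at 33.5 to 36.9% and at or below 0.510%.

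H3K4me2 was likewise more frequent at the shared sites. An H3K4me2 region covered 73.8% of them in empty-vector cells (3390 of 4596), 71.7% in wild-type-fragment cells (3297) and 77.7% in mutant-fragment cells (3572). The same shares over all PU.1 peaks were 37.1%, 35.6% and 38.0%. At the other constant sites they were 40.3%, 38.9% and 42.6%, and the difference averaged 33.8 points (SD 1.15, n = 3 lines, higher in 3 of 3, exact paired permutation p = 0.25, the smallest it can give). Constant sites with C/EBPβ in only 1 line lay nearer to the shared sites, at 62.2%, 60.1% and 64.8%. Constant C/EBPβ sites without PU.1 had H3K4me2 at 47.8%, 45.4% and 48.2%, so that C/EBPβ sites at a shared site were 27.2 points higher on average (SD 2.00, n = 3 lines, higher in 3 of 3, exact paired permutation p = 0.25). As given above, these sets also differ in place in the C/EBPβ file and in nearness to starts, and the part of either here was not tested.

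By site, 2934 shared sites (63.8%) had H3K4me2 in all 3 and 698 (15.2%) in none. The mark was present only in the mutant-fragment line at 265 sites (5.77%), only in the empty-vector line at 115 and only in the wild-type-fragment line at 91. It was missing only from the wild-type-fragment line at 221 (4.81%), only from the empty-vector line at 152 and only from the mutant-fragment line at 120. The mutant-fragment line also had the most H3K4me2 regions in all: 42514, against 39503 (empty-vector line) and 39445 (wild-type-fragment line). The site counts by line cover shared sites only, without the same counts over all PU.1 peaks or the other constant sites. The part of region number in them was not tested. C/EBPα was more frequent where H3K4me2 was present. Among the 2934 sites marked in all lines, 52.3%, 72.9% and 46.5% had C/EBPα in the 3 lines, and among the 698 sites marked in none 30.4%, 49.9% and 20.8% did. Sites with H3K4me2 in all lines were 16.7 kb from the nearest start at the median, and sites with it in none 26.5 kb. The regions that held a shared site were wider, with a median of 1830 bp in empty-vector cells against 1280 bp for regions without one, and 67.8% of those shared sites were centred in the middle 50% of the region. A wider region has more room for any site, and neither value was compared with regions that hold other PU.1 sites. Few regions held more than 1 shared site: 107 of 3279 in empty-vector cells had 2 or more, and the most was 3.

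The place of a peak in the deposited file moves with these shares. The files give every peak the same score, but rows near the top of the PU.1 file recurred more often: 97.7% of its first 25% of rows were constant and 14.9% of its last 25%. The shared sites had a median place 20.1% of the way down and the other constant sites 28.6%. Among the first 25% of rows, H3K4me2 in empty-vector cells covered 79.6% of 2702 shared sites and 52.3% of 14842 other constant sites. Among the last 25%, it covered 55.6% of 205 and 21.7% of 2475. C/EBPα in the same cells was at 48.6% against 1.10% at the top and 43.9% against 0.242% at the end of the file. The difference in H3K4me2, averaged over the lines, was 27.2 points within the first 25% of rows and 35.6 points in the remaining rows, against 33.8 in all.

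The C/EBP centres spread broadly around the PU.1 centre, with about as many on either side, while PU.1 centres of different libraries nearly coincided. From the PU.1 centre of the empty-vector cells to the C/EBPβ centre the median distance was 42.0, 41.0 and 42.0 bp in the 3 lines, and to the C/EBPα centre 43.0, 41.0 and 42.5 bp. PU.1 centres of the other lines were 10.0 and 9 bp away, so a distance of about 42 bp is larger than the shift of the same factor between libraries. C/EBPβ centres of the other lines were 14.0 and 17 bp from that of the empty-vector line, and C/EBPα centres 16.0 to 18.0 bp from it, so both C/EBP factors were centred at nearly the same spot. Distances from the PU.1 centre are bounded, since the peaks had to overlap, and reached at most 147 bp. Those between C/EBP centres have no such bound and reached 232 bp. The side of C/EBPβ is given as a description only, since the rule used these peaks. At 3358 shared sites the C/EBPβ centre was more than 10 bp from PU.1 in all lines, and at 3104 of them (92.4%) it was on the same side in all 3. At these sites a change of side needs a larger shift than the medians of 14.0 and 17 bp above. A high share is therefore partly built in, and no expected share was computed. By the median distance over the lines, 1093 sites had C/EBPβ within 20 bp of PU.1, 2058 between 20 and 60 bp, 1039 between 60 and 100 bp and 406 beyond 100 bp. C/EBPα was somewhat less frequent at the last class (40.9%, 58.6% and 39.2%) than at the first (49.0%, 70.4% and 41.1%), while H3K4me2 was at 78.1%, 75.6% and 77.6% against 72.9%, 71.5% and 78.1%. Neither difference was tested.

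**Figure D2:**
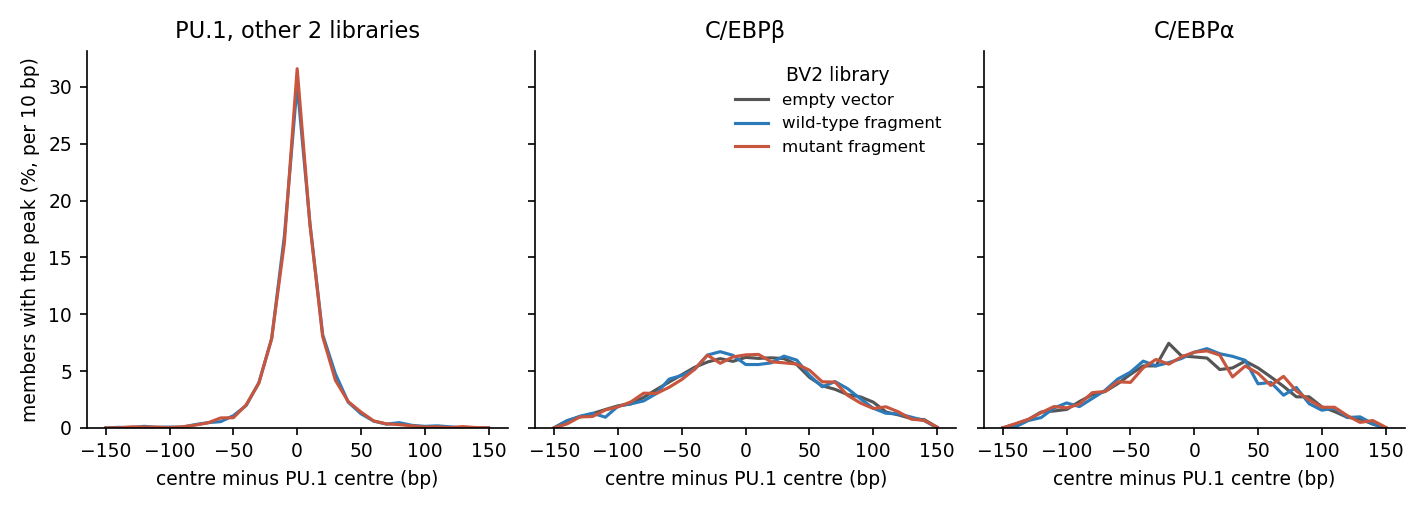
Distance from the empty-vector PU.1 centre (bp, horizontal axis) to the centre of the overlapping PU.1 peak of the other lines, the C/EBPβ peak and the C/EBPα peak, as the share of shared sites with that peak per 10 bp (vertical axis), 1 line per library. PU.1 is sharply centred, with medians of 10.0 and 9 bp, and the C/EBP factors spread over both sides with medians of 41.0 to 43.0 bp.

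In the genome the shared sites lay about as far from starts as PU.1 sites in general. A start lay within 1 kb of 336 of them (7.31%), against 7.89% of all PU.1 peaks of the empty-vector file and 6.59% of constant sites without C/EBPβ. Another 2133 (46.4%) were inside a transcript beyond that distance and 2127 (46.3%) between transcripts. The median distance to a start was 19.9 kb, against 21.4 kb over all PU.1 peaks. Per chromosome, the shared sites made up between 5.60% of the PU.1 peaks (chromosome 18) and 7.31% (chromosome 15) on the autosomes, and 3.91% on chromosome X. Grouping was counted for the shared sites only, without the same count over all PU.1 peaks or the other constant sites. With neighbours no more than 10 kb apart, 725 shared sites (15.8%) fell into 345 clusters and the largest 2 clusters held 4 sites. The first of these (chr12:32875934-32894029) is nearest to Pik3cg, a phosphoinositide kinase of leukocytes, and had H3K4me2 in all lines at 3 of 4 sites and C/EBPα in all lines at 0. The other (chr6:120420884-120429597), nearest to Il17ra, the interleukin-17 receptor, and Cecr6, had H3K4me2 in all lines at 4 of 4 sites and C/EBPα in all lines at 3. Other clusters of 3 lay nearest to Fcgr2b, the inhibitory IgG receptor (chr1:172883426-172897881), to Dusp6, a phosphatase of ERK kinases (chr10:98884997-98893583), and to Glrx, glutaredoxin (chr13:75925765-75935480).

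Each shared site within 100 kb of a start was given to the gene with the nearest start. This placed 4084 sites (88.9%) at 3100 genes. Among 22736 genes with a transcript of 200 bases or more, 3001 (13.2%) were nearest to a shared site, 2314 of them to 1 site and 47 to 4 or more. The genes with the most sites were Pde4b, a cyclic AMP phosphodiesterase, Vav3, Lrrfip1, a nucleic acid binding protein, and the uncharacterised Gm19510, with 6 each. Pde4b had H3K4me2 in all lines at 6 of its 6 sites, and the one closest to a start lay 0.936 kb upstream (chr4:102261439-102261585). Lhfpl2, a tetraspan membrane protein gene, had 5 sites, and all 5 had both H3K4me2 and C/EBPα in every line. They ran from 87.5 kb upstream (chr13:94740132-94740278) to 40.7 kb downstream of its start (chr13:94868332-94868478). Glrx had 5, from 51.5 to 19.7 kb upstream, and 4 of them had both. Sp3, Nek6, Zak and Fam134b had 5 each. RNA was present for most of these genes: Lhfpl2 had 25.4 to 60.5 RPKM over the 6 BV2 libraries, Nek6 10.3 to 22.5 and Pde4b 1.25 to 4.31 RPKM, while Gm19510 stayed at or below 0.200 RPKM.

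Gene lists for roles in phagocytes differed in how many of their constant PU.1 sites were shared with C/EBPβ. The list names are broad. The cytokine and chemokine list also holds the enzyme genes Ptgs2 and Nos2. The list of NF-kB subunits and feedback inhibitors holds the mRNA-decay genes Zfp36l1 and Zfp36l2. Over all genes, 3958 of 32545 constant PU.1 sites (12.2%) were shared sites. For granule and lysosome genes it was 27 of 88 (30.7%), for pattern recognition and Fc receptors 32 of 109 (29.4%) and for cytokines and chemokines 28 of 125 (22.4%). For myeloid transcription factors it was 18 of 220 (8.18%) and for homeostatic microglia genes 7 of 71 (9.86%). Lists of other cell types also had some: astrocyte and oligodendrocyte markers had 7 of 36 (19.4%), and neuron markers 0 of 5, which is too few to read. By genes, 41.2% of the myeloid transcription factors, 54.8% of the granule and lysosome genes and 67.9% of the growth factor and adhesion receptors were nearest to at least 1 shared site, against 13.2% of all genes and 19.5% of the 9963 genes of that length at 1 RPKM or more in at least 2 BV2 libraries. PU.1 itself was beside most of these genes: 93.5 to 100% of each of the 11 lists of phagocyte and metabolic genes had an empty-vector PU.1 peak, against 67.2% of all genes.

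**Figure D3:**
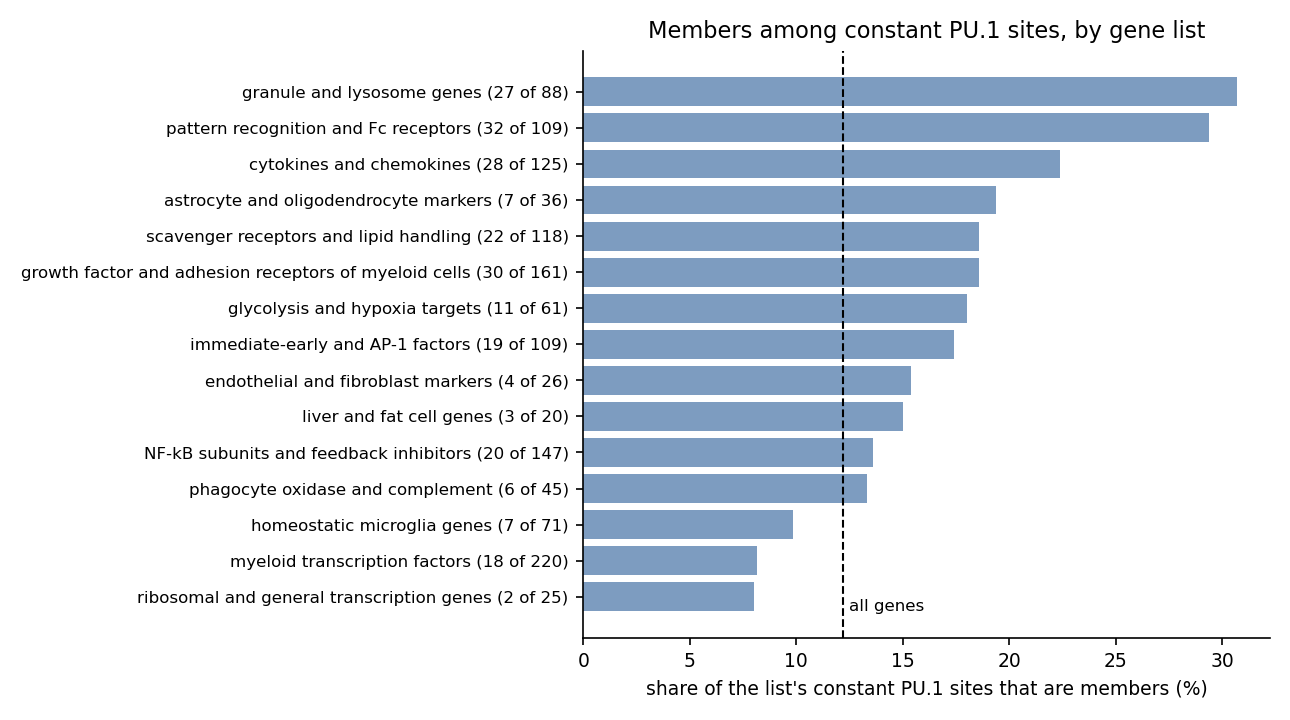
Share of the constant PU.1 sites nearest to each list's genes (within 100 kb) that are shared with C/EBPβ in all lines (%, horizontal axis), with the counts in brackets; lists with under 20 constant sites are left out and the dashed line is the share over all genes. Granule and lysosome genes (30.7%) and pattern recognition and Fc receptors (29.4%) are highest, and myeloid transcription factors (8.18%) are below the 12.2% of all genes.

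Among granule and lysosome genes, Ctsd (cathepsin D) and Ctsz (cathepsin Z) had 3 shared sites each. The sites of Ctsz lay 2.80 and 1.20 kb downstream and 0.634 kb upstream of its start, and H3K4me2 was at all 3 in every line. The sites of Ctsd lay 2.54, 11.6 and 15.9 kb upstream, with C/EBPα at all 3 in every line and H3K4me2 in every line at 1. In the pattern recognition list, Tlr2, the receptor for bacterial lipopeptides, had 3 sites, at 1.96 kb downstream (chr3:83643502-83643648) and 17.6 and 21.5 kb upstream, and all 3 had H3K4me2 and C/EBPα in every line. Tlr4, the lipopolysaccharide receptor, and the IgG receptor genes Fcgr1 and Fcgr2b had 3 each. In the cytokine list, Csf1, the macrophage growth factor, had 4 sites from 12.4 to 55.7 kb upstream, with H3K4me2 in every line at 4 and C/EBPα at 3. Il1a (interleukin-1 alpha) and Ptgs2 (cyclooxygenase 2) had 3 each. In the list of scavenger receptors and lipid genes, which also holds the secreted protein Spp1 (osteopontin), Marco and Spp1 had 3 each. Among receptors, Cd44, a hyaluronan receptor, had 4, with H3K4me2 in every line at 1 of them. Among immediate-early factors Fos and Btg1 had 3 each, and Btg1 had H3K4me2 in every line at none of its 3. Among myeloid factors the highest number was 2, for Ikzf1, Klf6, Mef2c and Pparg. The Ikzf1 site at its start (chr11:11586152-11586298, centre 9 bp after it) had C/EBPα in all lines and H3K4me2 in none.

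Genes nearest to shared sites were expressed more often than all genes, and from 1 to 3 sites the share was higher at each step in every BV2 library. Between 61.0 and 62.2% of the 3001 genes had 1 RPKM or more across the 6 BV2 libraries, against 41.2 to 42.1% of all genes, and their median was 2.24 to 2.51 RPKM against 0.159 to 0.197 RPKM. With 1 shared site the share was 58.6 to 60%, with 2 it was 65.8 to 68.2%, with 3 it was 73.5 to 74.8%, and with 4 or more (47 genes) it was 72.3 to 80.9%, which overlaps the range with 3 and lies below it in the 24 h mutant-fragment library (72.3% against 74.2%). The number of PU.1 sites rises along the same order, from a median of 5.00 PU.1 peaks per gene with 1 shared site to 20.0 with 4 or more. Genes with the same number of constant PU.1 sites differed less. With exactly 1 constant site, 52.4 to 54.3% of 420 genes with a shared site and 46.9 to 48.1% of 4388 genes without one had 1 RPKM or more. With 2 it was 52.9 to 55.5% against 51.2 to 52.4%, and with 3 it was 59.4 to 61.6% against 56.8 to 58.3%. With 4 or more constant sites, an open class in which the number was not matched, it was 66.1 to 68.1% of 1557 genes against 61.2 to 62.9% of 1263. Genes that had a shared site with H3K4me2 in all lines (2055) had a median of 2.68 to 3.09 RPKM, and genes whose shared sites had none in any line (398) 1.23 to 1.35 RPKM. Any 1 marked site places a gene in the first set, so more sites make entry easier. The part of site number in this difference was not tested. In primary cells, whose chromatin is not part of these data, genes with 1 or more shared sites reached 1 RPKM in 59.3 and 58.4% of cases in microglia (wild-type and mutant) and 62.3 and 63.6% in macrophages, against 40.5, 39.9, 41.5 and 42.8% of all genes. These are descriptions over genes, which are not independent replicates.

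**Figure D4:**
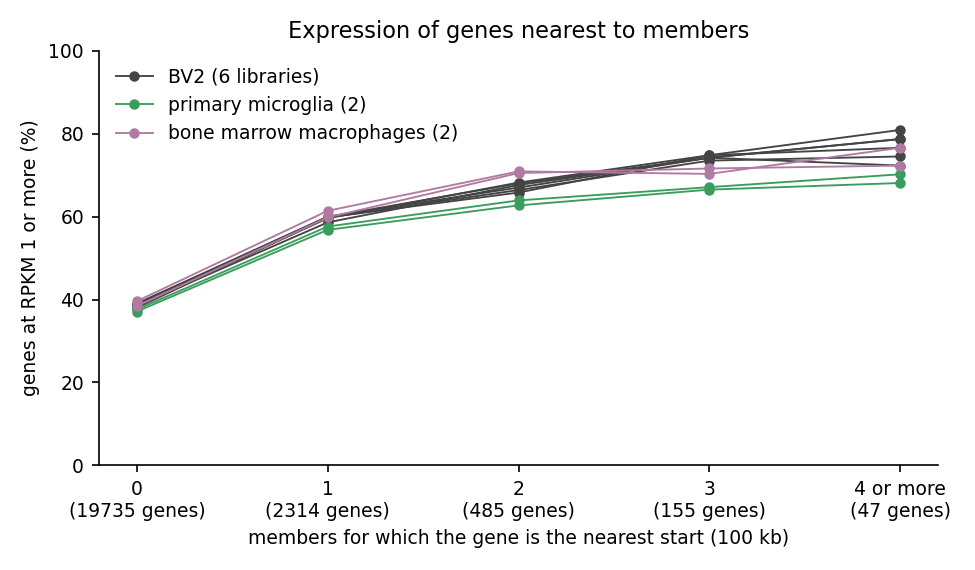
Share of genes at 1 RPKM or more (%, vertical axis) by the number of shared sites for which the gene is the nearest start within 100 kb (horizontal axis, with the number of genes), 1 line per RNA library. The share rises from 38.0 to 39.0% with 0 sites to 73.5 to 74.8% with 3 sites in BV2 libraries, and microglia lie lowest from 1 site onward.

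The next comparison asks whether genes beside these sites, which had called peaks in all lines, changed with the mutant fragment. The strength of binding was not measured. Against the empty vector, 5 of the 1980 tested genes nearest to a shared site rose and 0 fell (limma on log2(RPKM + 1) with line and time as terms, 2 libraries per line, Benjamini-Hochberg adjusted p under 0.05). Over all 10352 genes tested, 9 rose (0.0869%) and 0 fell (0%). The 5 were Il1a, Marco, Pilra, Clec4a1 and Nfkbia. At an unadjusted p under 0.05, 208 of the 1980 were higher (10.5%) and 214 lower (10.8%), against 7.49% and 7.79% of all genes tested. The median log2 fold change was -0.01 for the 1980 genes and 0.00 for all. Against the wild-type fragment, 3 of the 5, Il1a, Clec4a1 and Nfkbia, rose and 0 fell, with 7 risen (0.0676%) and 0 fallen over all genes. At an unadjusted p under 0.05, 200 of the 1980 were higher (10.1%) and 229 lower (11.6%) there, against 7.43% and 8.40% of all genes. Between the wild-type fragment and the empty vector 0 genes passed in limma, and 6 of the 1980 were higher (0.303%) and 2 lower (0.101%) at an unadjusted p under 0.05, against 0.357% and 0.290% of all genes. These calls depend on the settings: with a pseudocount of 5, or without the filter on low values, 0 of the genes beside shared sites passed in either of these contrasts. Without the 24 h mutant-fragment library, 173 (8.89%) were higher and 198 (10.2%) lower than with the empty vector, against 5.04% and 9.70% of all genes in that fit. Without the other mutant-fragment library it was 359 (18.4%) and 427 (21.9%), against 17.3% and 15.4% of all genes. Leaving out a wild-type-fragment library gave 46 higher at either time (1.29% and 1.27% of all genes), and leaving out the 24 h empty-vector library 8 (0.215% of all genes). In these fits the remaining library is assumed to vary like the other lines. The contrasts share samples: the mutant-fragment libraries enter the first 2 and the empty-vector libraries the first and last.

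Il1a RNA in empty-vector cells stood at 4.49 RPKM at 24 h and 1.78 at the second time. Cells with the wild-type fragment had 5.60 and 2.09 RPKM, and cells with the mutant fragment 66.4 and 34.3. Both mutant-fragment libraries lie above the other 4, and the log2 fold change against the empty vector was 3.64 (SE 0.16, limma adjusted p = 0.0202). Its 3 shared sites lie upstream, at 4.13 kb (chr2:129139768-129139914), 6.01 kb (chr2:129141645-129141791) and 18.5 kb (chr2:129154126-129154272). The outer ones had H3K4me2 and C/EBPα in all lines, and the middle one lacked H3K4me2 in the wild-type-fragment line and C/EBPα in the empty-vector line. Marco, a scavenger receptor, stood at 0.640 and 1.05 RPKM in empty-vector cells, at 0.966 and 2.29 in wild-type-fragment cells and at 97.0 and 59.0 in mutant-fragment cells. Its log2 fold change against the empty vector was 5.38 (SE 0.37, limma adjusted p = 0.0384). Marco is nearest to 3 shared sites, 1 of them 0.282 kb after its start (chr1:122401306-122401452). All 3 had H3K4me2 in every line, and C/EBPα only in the wild-type-fragment line, the line with the most C/EBPα tags and peaks.

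Pilra, a paired immunoglobulin-like receptor with similar neighbours among which reads may be split, stood at 1.40 and 2.27, then 1.80 and 3.31, then 14.8 and 31.0 RPKM in the same order of lines (log2 fold change 3.01, SE 0.21, limma adjusted p = 0.0384). Its 2 shared sites lie inside a transcript, 5.88 and 4.94 kb after the start, with H3K4me2 in every line. Nfkbia, the NF-kB inhibitor IκBα, had 2.00 and 3.18, then 1.93 and 3.37, then 14.1 and 21.3 RPKM (log2 fold change 2.37, SE 0.16, limma adjusted p = 0.0384). Its 2 sites lie 3.82 kb (chr12:56589741-56589887) and 11.6 kb (chr12:56582009-56582155) downstream, with H3K4me2 in every line, and the farther one had C/EBPα in none. Clec4a1 had 1.39 and 1.29, then 0.931 and 0.917, then 11 and 12.8 RPKM (log2 fold change 2.46, SE 0.17, limma adjusted p = 0.0384). Its single site is the promoter site shown above, with H3K4me2 in every line and C/EBPα in none. In each of the 5 genes both mutant-fragment libraries lay above the other 4, and over 12 or 13 other settings their log2 fold changes stayed positive.

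Other genes with 2 or more shared sites that had large changes did not pass the test. On the high side Tlr2 went from 3.56 and 4.91 RPKM in empty-vector cells to 22.2 and 30.2 in mutant-fragment cells, with a log2 fold change of 2.37 (SE 0.19) and an adjusted p of 0.0516 in limma. Nfkbiz, an atypical IκB protein, had 1.17 and 0.909 against 26.7 and 7.36 RPKM (adjusted p = 0.129 in limma), and Vnn3, a pantetheinase, 0.299 and 0.119 against 32.6 and 6.29 RPKM (adjusted p = 0.127 in limma). Vnn3 has a shared site centred 15 bp before its start (chr10:23571180-23571326), with H3K4me2 and C/EBPα in all lines. On the low side Mef2c, a transcription factor of microglia, stood at 5.71 and 7.46 RPKM in empty-vector cells and at 0.806 and 2.25 in mutant-fragment cells (log2 fold change -1.64, SE 0.20; limma adjusted p = 0.108). Gpr183, an oxysterol receptor, had 3.09 and 1.90 against 0.0740 and 0.348 RPKM, and F13a1, a subunit of coagulation factor XIII, 9.97 and 2.13 against 0.113 and 0.0240 RPKM. Map3k1, a kinase upstream of JNK, had 20.8 and 14.1 against 5.32 and 7.11 RPKM, and its 3 sites had H3K4me2 and C/EBPα in all lines.

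**Figure D5:**
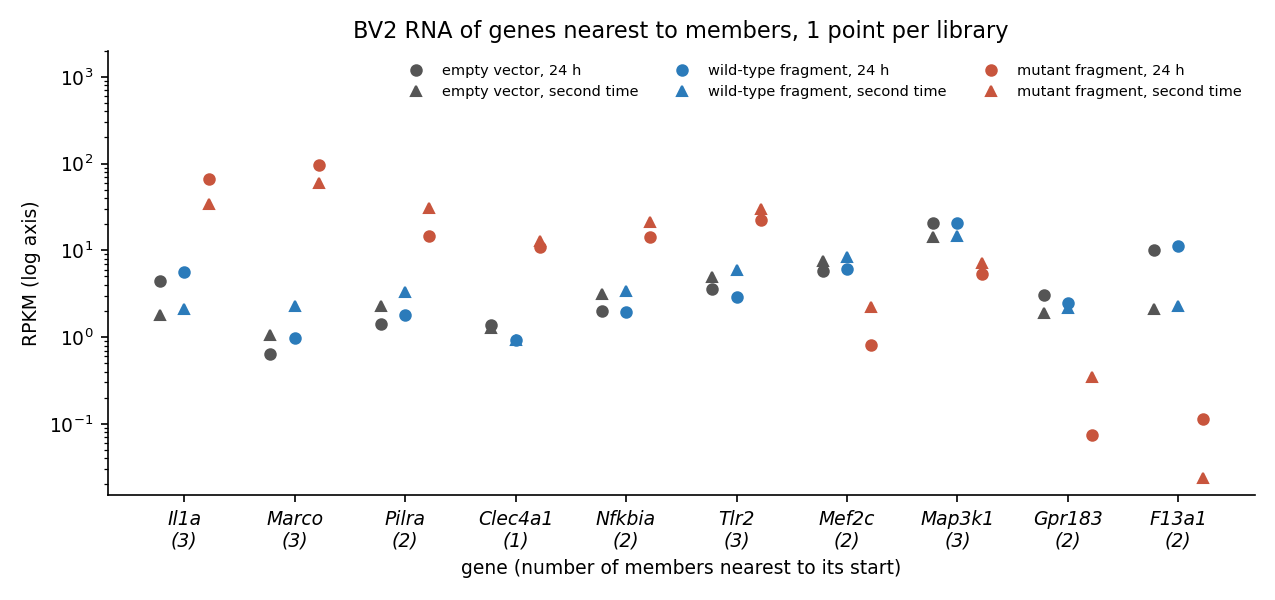
RPKM (vertical log axis) of 10 genes in the 6 BV2 libraries, 1 point per library, with the number of shared sites nearest to each gene in brackets. The first 5 genes rose in mutant-fragment cells, where both points lie above the other 4; Tlr2 and the 4 genes on the right, which lie lower, did not pass the test.

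By list, no gene beyond those 5 passed the test. Of the 13 tested genes with a shared site in the cytokine and chemokine list, 1 rose (Il1a). Of these 13, 11 had a positive log2 fold change against the empty vector, with a median of 1.09. Of 13 NF-kB subunits and feedback inhibitors 1 rose (Nfkbia) and 10 were positive (median 0.67), and of 16 pattern recognition and Fc receptors 2 rose and 11 were positive (median 0.36). Growth factor and adhesion receptors had 5 positive of 16 (median -0.27), glycolysis and hypoxia targets 2 of 8 (median -0.50), and in neither list did a gene pass. Granule and lysosome genes had 10 positive of 15 (median 0.49) and myeloid transcription factors 5 of 13 (median -0.31). Over all 1945 tested genes with a shared site and a transcript of 200 bases or more, 941 were positive and the median was -0.01. Each list's tested genes without a shared site were not counted. Whether these directions hold for the whole lists, apart from the shared sites, was not tested. The lists were chosen with earlier results of these data known. For the factors themselves, Spi1 stood at 26.9 and 28.7 RPKM in empty-vector cells and at 47.8 and 70.2 in mutant-fragment cells (log2 fold change 1.03, limma adjusted p = 0.168). Cebpb had 51.6 and 37.1 against 149 and 52.4 (1.00, limma adjusted p = 0.248), and Cebpa 5.63 and 5.88 against 2.68 and 4.13 RPKM (-0.64, limma adjusted p = 0.284). None of the 3 passed the test.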

How the data were processed

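The authors deposited 1 peak list per ChIP-seq library and 1 RNA table. Per the file headers, HOMER called peaks in each library separately, requiring 4-fold enrichment over input and over the surrounding region (false discovery rate 0.001 for the factors). The deposited score is 1 for every peak. The headers name the input after thioglycollate-elicited macrophages, not BV2. RNA values are RPKM of 31641 transcripts, deposited by the authors; per the submitters' processing notes STAR 2.0.3e, HOMER, Bowtie and edgeR were used on mm9, and read counts were not used here.

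Overlaps of at least 1 bp defined the sites; starts are those of the RNA table. Sites and gene lists were chosen with earlier results of these data known. Each symbol was represented by its most abundant transcript (mean RPKM). Genes at 1 RPKM or more in at least 2 of 6 BV2 libraries were fitted on log2(RPKM + 1), which understates changes of low genes, with limma 3.58.1 in R 4.3.3. Line and time were terms, which leaves 2 residual degrees of freedom and treats both times as replicates. P-values were adjusted (Benjamini-Hochberg) across the 10352 genes, with a threshold of 0.05. Named genes were those called, the 10 with most sites, up to 4 per list by sites, the 8 highest and 8 lowest by fold change among genes with at least 2 sites, and Spi1, Cebpa and Cebpb; not every gene so named is described. The overlap and limma code was tested on simulated data. Alternatives covered the overlap rule, the pseudocount, the filter, the time term, quantile normalization, distance limits and leaving out each RNA library.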

Additional observations from a re-analysis of the deposited data

Results flagged for a closer look

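Glrx, which is nearest to 5 shared sites, differed between the 2 times. Its difference between the mutant fragment and the empty vector was -1.38 on the log2(RPKM + 1) scale at 24 h (2.31 against 7.62 RPKM) and 1.47 at the second time (28.3 against 9.55 RPKM). Against the wild-type fragment it was -1.21 and 1.32. It was singled out because the single library pair of each time moved in the opposite direction by at least 1, and the difference between times was not tested. It was the only one of the genes examined by name for which this held.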

How the results depend on the processing

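The number of shared sites was 2828 when overlap of at least 50% of the PU.1 peak was required and 7310 when C/EBPβ was required in 2 of 3 lines. Under these rules C/EBPα shares (empty vector, wild-type fragment, mutant fragment) were 50.3, 70.8 and 43.0%, and 31.8, 49.1 and 28.1%. They were 42.9, 61.3 and 36.9% when centres had to lie within 100 bp. H3K4me2 was at 77.6, 76.2 and 81.1% with regions within 500 bp, at 70.6, 68.4 and 74.7% with C/EBPβ in 2 of 3 lines, and at 71.9% in empty-vector cells with the 50% overlap. The mean differences from other constant sites stayed positive in every setting run. They were 27.2 to 39.3 points for H3K4me2 and 35.7 to 52.2 for C/EBPα. The split by row order was chosen after seeing the data. Also unplanned were the comparison with constant sites without C/EBPβ, which gave the 39.3 points, and the restriction to sites over 1 kb from a start. A start lay within 500 bp of 4.66% and within 2500 bp of 13.3%, and a 20 kb limit left 2009 nearest genes.

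For RNA beside shared sites, the mutant fragment against the empty vector gave 0 higher genes with pseudocount 5 and 0 without the filter, 1 with 1 RPKM in all 6 libraries and 1 without the time term. Against the wild-type fragment it gave 6 with pseudocount 0.1, 0 with pseudocount 5, 0 without the filter and 1 with 1 RPKM in all 6 libraries. Leaving out each library in turn gave 5 to 359 higher and 1 to 427 lower against the empty vector (13 to 1773 and 3 to 1576 over all genes), 18 to 337 and 4 to 447 against the wild-type fragment (50 to 1751 and 27 to 1641 over all genes), and 0 to 3 and 0 to 1 for the wild-type fragment against the empty vector (0 to 31 and 0 to 12 over all genes). Here the lone library of a line is assumed to vary like the other lines, and the cause of the larger counts was not tested. Of 405 values for single genes, 277 kept their direction and side of the threshold, 29 lost the call, 99 gained it and 0 changed direction. Motif windows widened by 100 bp were not run, since no genome of the build was used. Peak number and depth limit the shares, and each line has 1 library per antibody.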
